A study of Mus musculus with 384 samples.

Results

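Lgr5-positive and Lgr5-negative basal cells of the adult mouse mammary gland were compared as 23 against 48 single cells. Of the wells labelled as single basal cells, 18 missed a limit of quality (50000 gene reads, 1500 detected genes and no more than 20% mitochondrial reads) and 100 met all of them. Of the 100, 87 had Krt5, Krt14 or Acta2 at 100 CPM or more, and 13 had none of these at that level. CPM are the reads of a gene per 1000000 reads on genes in a cell or a sum of cells. A cell was Lgr5-positive at 100 CPM of Lgr5 or more and Lgr5-negative with 0 Lgr5 reads, and the 16 cells with a lower level above 0 entered neither side. The plate held 384 wells, of which 331 single cells in all met these limits.

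The basal cells came from adult glands of Rosa-tdTomato mice and were gated as CD24+CD29Hi, with dead cells and cells carrying CD45, CD31 or CD140a removed. They were not sorted on Lgr5, so the sides were defined from the sequencing reads. The same plate held luminal cells of adult glands and Lgr5 reporter cells (Lgr5-EGFP-IRES-CreER) of embryonic day 14. The sources used here give neither the age nor the number of the adult mice, and no label ties a well to an animal. Both sides therefore count as 1 sample. Cells of 1 sample do not replicate a condition, so the comparison has no test. Intervals given with values cover counting error only, and reads amplified by PCR without molecular identifiers are not independent molecules.

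Basal cells form the outer layer of the mammary epithelium, touch the basement membrane, express keratins 5 and 14 and mature into contractile myoepithelial cells. LGR5 is a receptor for R-spondins, secreted proteins that keep Wnt receptors at the cell surface by removing the ligases ZNRF3 and RNF43. Lgr5 marks stem cells in the intestine and hair follicle, and in the mammary gland it has been described in a subset of basal cells.

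Lgr5 defined the sides, and the first results concern its relatives Lgr4 and Lgr6 and Tspan8, a membrane protein of the tetraspanin family. Lgr5 (ENSMUSG00000020140.15) lies on the minus strand of chromosome 10 at 115450311 to 115587780 (GRCm38), and Tspan8 (ENSMUSG00000034127.14) on the plus strand at 115816832 to 115849893, 229 kb away. Lgr4 (ENSMUSG00000050199.13) lies on chromosome 2 at 109917647 to 110014257 and Lgr6 (ENSMUSG00000042793.13) on chromosome 1 at 134983301 to 135105276. Promoter windows of 300 bases from RefSeq (GRCm38.p6) are shown 5′ to 3′ on the gene's own strand, because the first results below turn on these 3 genes. Capitals mark the core letters of TCF and LEF sites, the DNA-binding partners of beta-catenin, searched as CTTTGA and CTTTGT on both strands. The windows are chr10:115817034-115817333 (plus strand) for Tspan8, chr2:109917397-109917696 (plus strand) for Lgr4 and chr1:135105227-135105526 (minus strand) for Lgr6. Lgr5 had no entry in this table.
Tspan8: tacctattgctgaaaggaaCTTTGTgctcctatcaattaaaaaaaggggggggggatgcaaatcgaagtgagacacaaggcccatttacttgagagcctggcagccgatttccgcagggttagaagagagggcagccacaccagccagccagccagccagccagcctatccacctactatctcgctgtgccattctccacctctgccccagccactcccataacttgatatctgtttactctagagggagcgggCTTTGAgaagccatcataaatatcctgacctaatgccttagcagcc
Lgr4: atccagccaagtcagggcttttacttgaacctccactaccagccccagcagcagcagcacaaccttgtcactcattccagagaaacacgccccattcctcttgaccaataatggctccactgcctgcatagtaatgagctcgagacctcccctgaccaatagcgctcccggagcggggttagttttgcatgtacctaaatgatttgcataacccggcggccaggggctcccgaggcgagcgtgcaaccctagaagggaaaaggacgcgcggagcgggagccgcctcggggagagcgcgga
Lgr6: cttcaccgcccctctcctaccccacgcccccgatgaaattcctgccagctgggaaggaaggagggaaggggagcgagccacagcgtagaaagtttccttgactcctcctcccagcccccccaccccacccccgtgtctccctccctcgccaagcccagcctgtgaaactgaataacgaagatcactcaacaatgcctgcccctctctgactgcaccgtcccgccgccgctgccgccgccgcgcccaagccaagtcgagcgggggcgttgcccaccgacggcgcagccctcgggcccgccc
The Tspan8 window held 2 matches, and the windows of Lgr4 and Lgr6 held 0. Of all 32851 promoter windows of this length, 31.2% held at least 1 match. Of the 12 genes named below as highest in Lgr5-positive cells, 10 were in the table with 15 windows, of which 4 held a match. Of the 12 named as lowest, 8 were in the table with 9 windows, of which 3 held a match. A match of these letters is not a binding site.

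Lgr5 levels in the 23 positive cells ran from 108.6 to 2424 CPM with a median of 362 CPM. The 2 cells just inside the limit had 108.6 and 110.5 CPM, and the 2 just outside had 99.9 and 85.8 CPM. The 16 cells in between had a median of 15.2 CPM. Well B8 was the highest, and 9 of the 23 wells were above 500 CPM. These values chose the sides and support nothing by themselves. The basal well of 50 cells had 362.1 CPM of Lgr5, and the wells without a cell had 0 Lgr5 reads.

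Lgr5-positive cells were sequenced more deeply and held more genes. They had 175390 to 1466484 reads on genes with a median of 646684, and the negative cells had 74436 to 1307090 with a median of 393654. At an equal 50000 reads per cell the medians were 2456 genes in positive and 2003.5 genes in negative cells, and 2043.5 in the cells in between. Spike-in reads made up a median of 6.46% of reads in positive and 9.56% in negative cells. Of the negative cells 13 had under 200000 reads, against 3 of the positive cells, so 0 reads of Lgr5 does not show that a cell lacked the transcript. The part of depth and gene number in the differences was not tested beyond the restricted comparisons given with the results.

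**Figure D1:**
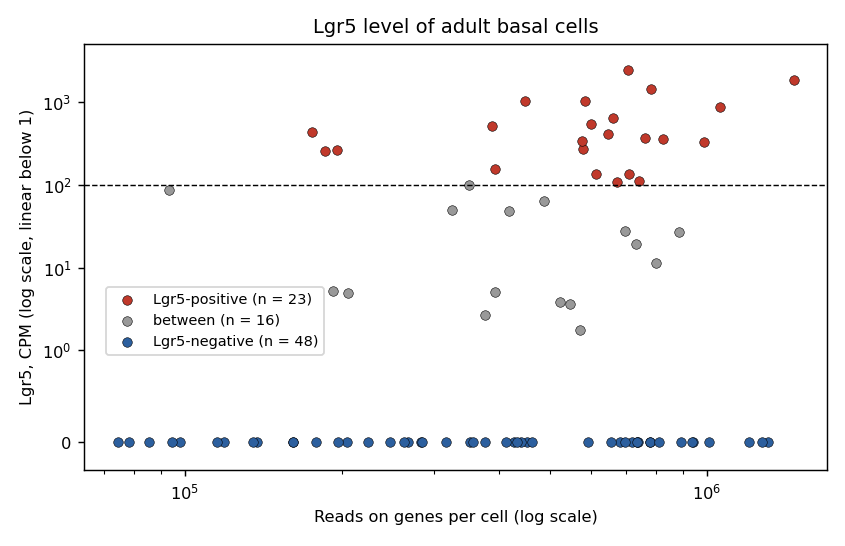
Lgr5 level in CPM (log axis, linear below 1) against reads on genes (log axis) in the 87 basal cells, 1 point per cell, with a dashed line at 100 CPM. The 23 positive cells lie above the line at 108.6 to 2424 CPM, the 48 negative cells lie at 0, and negative cells reach down to 74436 reads.

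Levels of the basal markers are a description, since entry to both sides used them. All 3 of Krt5, Krt14 and Acta2 were at 100 CPM or more in 20 of 23 positive and 33 of 48 negative cells. Over 10315 genes, 22 of 23 positive and 46 of 48 negative cells correlated best with the basal well of 50 cells. The exceptions were positive well A16 and negative well A3, which matched the embryonic well, and negative well F8, which matched the luminal well. Well A16 held 6807 genes, 94.7% of the reads of the G2 and M phase list on the positive side and 57.7% of those of the embryonic gate genes. Positive well C16 carried 5 endothelial markers and 60.7% of the endothelial reads of its side. Negative wells F7 and F8 each carried 3 fibroblast markers, and D21 carried 3 immune markers. Some of the sums that these wells carry are given with and without them. Some neighbouring wells were alike. Positive wells C15 and C16 had 285.6 and 290.8 CPM of Snhg5, 371.7 and 382 CPM of Appbp2, and 0 of Lgr4 and Thbs1. Lgr5, which chose the sides, was 640.7 CPM in C15 and 427.6 CPM in C16. Krt14 was 5570 and 3831 CPM, Vim 454.8 and 307.9 CPM and Lgals1 1584 and 1060 CPM in these wells. Whether the positive call of C16 repeats C15 was not tested. Their Otud4 differed more, at 346 and 889.4 CPM. Negative wells E15 and E16 had 562.9 and 504.8 CPM of Apoc1 and 858.9 and 664.6 CPM of Egfr. Positive wells B15 and B16 had 2264 and 468.5 CPM of Anxa1 and 484.9 and 103.4 CPM of Appbp2. Vim went the other way in that pair, at 12.08 and 846.9 CPM. Negative well D15 and positive well D16 shared some genes, with 6029 and 855.4 CPM of Thbs1, 2089 and 291.6 of Dcn and 1515 and 221.1 of Myc. Their Lgr5 differed, at 0 and 353.6 CPM, as did Krt14, at 491 and 4910 CPM. Well A16 lay beside an embryonic well. Whether reads passed between neighbouring wells was not tested. Each well, these included, counts as 1 cell in every count of cells below.

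Of 10882 genes at 5 CPM or more on either side, 2935 (27%) were higher by 2-fold or more and 3180 (29.2%) lower by as much in the summed reads of Lgr5-positive cells. The median log2 ratio over all of them was -0.034. Many of these ratios came from single cells: in 68% of the higher and 60.3% of the lower genes, 1 cell held over 50% of the reads on the higher side. Without the top cell of each gene on each side, 1778 genes were at least 2-fold higher. Shares of cells gave fewer calls. With 5 reads at an equal 50000 reads per cell as detection, 461 genes (4.24%) were found in a share of positive cells at least 20 points higher, and 54 (0.496%) in a share at least 20 points lower. The median gap over all measured genes was 2.26 points in favour of positive cells, which also had more genes at that depth.

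Among the LGR receptors, Lgr4 was higher and Lgr6 lower in Lgr5-positive cells. Lgr4, the most widely expressed R-spondin receptor, had 0 to 1272 CPM with a median of 233 CPM in positive cells, and 0 to 2612 CPM with a median of 6.85 CPM in negative cells. It was at 100 CPM or more in 13 of 23 positive and 12 of 48 negative cells. The summed level was 380.1 against 149.7 CPM, 2.54-fold higher (2.43 to 2.65). Both sides overlapped over most of their range, and the highest positive wells, B15 and E23 with 1272 and 1269 CPM, lay below the highest negative cell.

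Lgr6, the third R-spondin receptor of the family, was at 100 CPM or more in 20 of 48 negative cells (41.7%, exact interval 27.6 to 56.8%). It reached that level in 2 of 23 positive cells (8.70%, 1.07 to 28%), which were wells B5 at 1040 CPM and B16 at 365.1 CPM. Of the 16 cells in between, 1 did so. The range was 0 to 3774 CPM with a median of 50.6 CPM in negative cells and 0 to 1040 CPM with a median of 0 in positive cells. The summed level was 368.0 CPM in negative and 76.6 CPM in positive cells, 4.80-fold lower in the positive cells (4.51 to 5.11). Well B5 held 69.8% of the Lgr6 reads of its side, and across the 17 alternative settings the log2 ratio ran from -6.22 to -1.54.

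Tspan8, a surface marker reported for a quiescent subset of mammary stem cells, differed more in its sum than Lgr4 or Lgr6, but was read in a minority of cells. It was at 100 CPM or more in 7 of 23 positive cells, 1 of 48 negative cells and 4 of the 16 cells in between. The 7 positive values were 7267 CPM in B5, 2659 in D9, 2411 in D16, 1558 in E4, 1426 in E23, 379.1 in D13 and 115.6 CPM in B15. The other 16 positive cells were at 30.0 CPM or below. The negative cell D15 had 2015 CPM and held 95% of the reads of its side. D15 and positive cell D16 lay in neighbouring wells, and whether Tspan8 reads passed between them was not tested. Summed levels were 809.0 against 39.98 CPM, 20.2-fold higher (18.9 to 21.7), and 458.4 CPM on the positive side without well B5. The cells in between had 835.2 CPM, of which well C1 held 92.3% of the reads, and 72.3 CPM without it. Without D15 the negative cells had 2.05 CPM.

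Co-occurrence within cells differed between these genes. Of the 7 positive cells with Tspan8 at 100 CPM or more, 6 also had Lgr4 at that level and 1 had Lgr6. Both of the positive cells with Lgr6, wells B5 and B16, had Lgr4 as well. Well B16 had 331.8 CPM of Lgr4 and 30.01 CPM of Tspan8, and its neighbour B15 had 1272 and 115.6 CPM. Lgr6 was 365.1 CPM in B16 and 6.903 CPM in B15. Whether the Lgr4 reads of B16 came from B15 was not tested, so co-occurrence within B16 cannot be read. In negative cells, 12 had Lgr4 and 20 had Lgr6 at 100 CPM or more, and 3 had both. Among the 14 protein-coding genes within 1000 kb of Lgr5, 8 were measured. Tbc1d15, 199 kb away on the other side, had 151 against 34.8 CPM, and the nearest measured gene, Zfc3h1, 18 kb away, had 27.7 against 187 CPM. Both were chosen after their values were seen.

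Of the 4 R-spondins and 2 ligases of the same step, the ligases were measured. The 4 R-spondin genes had 0 reads on both sides, which at 3 reads allows up to 0.203 CPM in positive and 0.131 CPM in negative cells. Znrf3 had 70.3 CPM in positive and 33.3 CPM in negative cells and was at 100 CPM or more in 6 cells on each side. Its ratio turned below 1 with the Lgr5 limit at 200 CPM and within plate rows A to C. Rnf43 had 70.7 and 67 CPM.

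**Figure D2:**
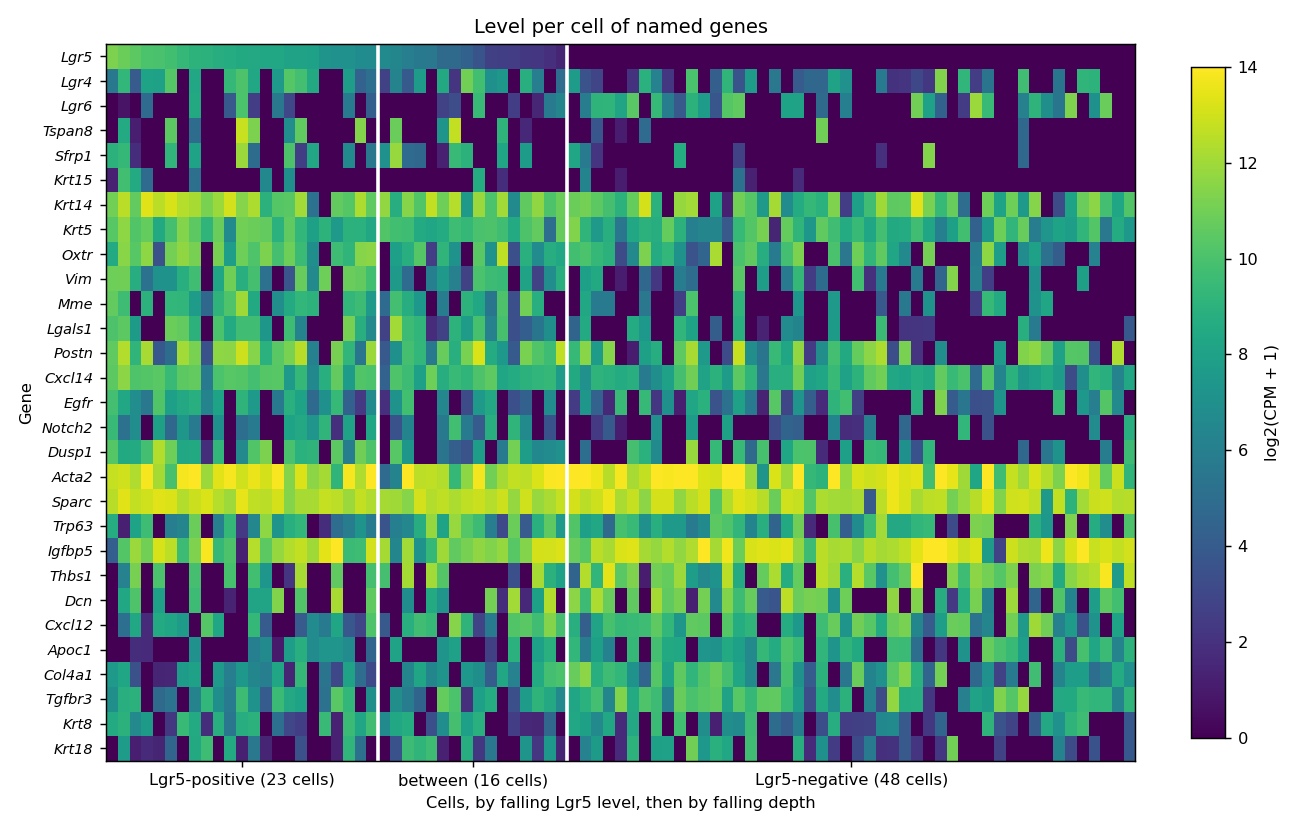
Level as log2(CPM + 1) of 29 named genes (rows) in 87 basal cells (columns), ordered from high to low Lgr5 within each side and then by depth. Tspan8 stands out in 7 positive, 4 in-between and 1 negative cells at 100 CPM or more, and Lgr6 and Thbs1 are seen in more of the negative cells.

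Of the wider Wnt pathway, 22 of 28 receptors and transducers were measured. Of these 4 were higher by 2-fold or more and 5 lower, against 27% and 29.2% of all measured genes, with a median log2 ratio of -0.24. The shares over all measured genes are the ones to set beside the counts of every list below. Ryk, a Wnt co-receptor, had 227.1 against 93.9 CPM and was at 100 CPM or more in 11 of 23 positive and 9 of 48 negative cells. Fzd7, a frizzled receptor of basal cells, had 411.4 against 494.5 CPM, and Ctnnb1, which encodes beta-catenin, 316.6 against 450.2 CPM. Of 7 measured of 17 Wnt ligands, 3 were higher and 2 lower. Wnt5a, a ligand of the non-canonical branch, had 134.2 and 104.8 CPM. Wnt10a had 16.1 against 0.524 CPM in all, with 2 positive cells at 100 CPM or more and 0 negative cells.

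Of 15 measured of 22 targets and inhibitors of the pathway, 5 were at least 2-fold higher and 6 lower, with a median log2 ratio of -0.19. Sfrp1, a secreted Wnt inhibitor, ranged from 0 to 3738 CPM with a median of 2.56 CPM in positive cells and from 0 to 2729 CPM with a median of 0 in negative cells. It was at 100 CPM or more in 8 of 23 against 3 of 48 cells, and 5.88-fold higher in the sums (5.56 to 6.23). Well B5 held 49.5% of the positive reads, and 4 of the 8 cells also had Tspan8 at 100 CPM or more. The 8 include neighbouring wells B15 and B16 at 1070 and 276.7 CPM, and well A16 at 102.6 CPM. Whether Sfrp1 reads passed between wells was not tested. Cd44, an adhesion receptor and Wnt target, had 260.4 against 62.5 CPM. Myc, a growth-promoting transcription factor and Wnt target, had 104.3 CPM in positive and 392.6 CPM in negative cells, with 6 of 23 and 23 of 48 cells at 100 CPM or more. Axin2, the standard feedback target, was low on both sides at 5.29 and 18.1 CPM, with 0 and 2 cells at 100 CPM or more.

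Mme, Vim and Lgals1 had the highest summed levels in Lgr5-positive cells among the 12 genes with the highest ratios, and each was found in most of those cells. Mme, the surface peptidase CD10 used as a myoepithelial marker, ranged from 0 to 4165 CPM with a median of 504.4 CPM in positive cells and from 0 to 1060 CPM with a median of 0 in negative cells. Its sums were 650.9 and 97.7 CPM, 6.66-fold apart (6.36 to 6.98). It was at 100 CPM or more in 17 of 23 positive, 8 of 16 in-between and 10 of 48 negative cells. Vim, the intermediate filament vimentin, ranged from 0 to 2024 CPM (median 438.3) against 0 to 2659 CPM (median 0), with 17 of 23 and 9 of 48 cells at 100 CPM or more. Its sums were 822.8 and 144.0 CPM, 5.72-fold apart (5.50 to 5.94). Vim and Mme were both at that level in 14 of 23 positive and 4 of 48 negative cells. At equal depth Vim was detected in 73.9% of positive (51.6 to 89.8%) and 18.8% of negative cells (8.95 to 32.6%).

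Lgals1, the sugar-binding protein galectin-1, ranged from 0 to 2281 CPM (median 380.4) in positive and from 0 to 733.9 CPM (median 0) in negative cells, with 14 of 23 and 10 of 48 cells at 100 CPM or more. Anxa1, a membrane-binding annexin, had 421.5 against 63.1 CPM, and 10 of 23 and 4 of 48 cells at that level. Mlf2, a nuclear protein, had a median of 250.1 against 12.7 CPM and was the only one of these 12 genes with a negative median above 0. Pitpnc1, a phosphatidylinositol transfer protein, had the highest log2 ratio of the 12 at 3.78 (181.8 against 12.4 CPM), with 7 of 23 and 1 of 48 cells at 100 CPM or more. Snhg5, a non-coding host gene of small nucleolar RNAs, followed at 3.53 (165.9 against 13.4 CPM) and Myadm, a membrane protein, at 2.92 (234.7 against 30.2 CPM).

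Appbp2, Fbxo3 (an F-box protein of ubiquitin ligases), Otud4 (a deubiquitinase) and Nufip2 (an RNA-binding protein) completed the 12, with log2 ratios of 2.62, 2.60, 2.28 and 2.28. They were at 100 CPM or more in 9, 9, 9 and 6 of the 23 positive cells, and in 5, 6, 5 and 5 of the 48 negative cells. In each of the 12 genes both sides overlapped, since some positive cells were at 0. Appbp2 had 18.4 CPM in the cells in between, below the 31.7 CPM of negative cells, while Otud4 had 378.6 CPM there against 248.9 CPM in positive cells. Well C1 held 68.3% of the Otud4 reads in between, and without it the level was 135.8 CPM.

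**Figure D3:**
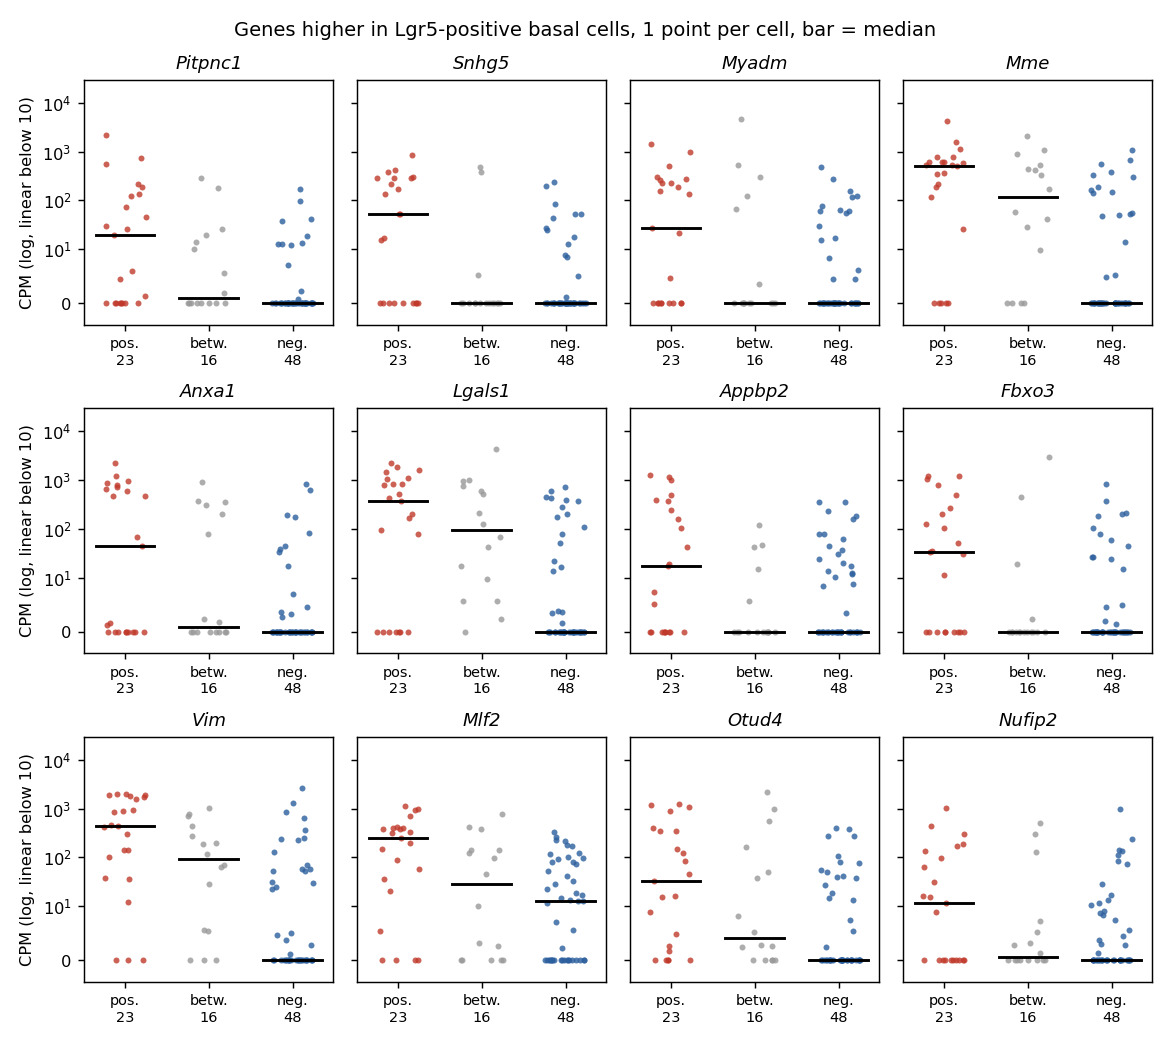
CPM per cell (log axis, linear below 10) of the 12 genes highest in Lgr5-positive cells, for 23 positive, 16 in-between and 48 negative cells, with a bar at the median. The negative median is 0 in all but Mlf2 (12.7 CPM), while the positive medians run from 11.3 CPM in Nufip2 to 504.4 CPM in Mme.

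Among the 12 genes with the lowest ratios, Thbs1 and Col4a1 had the highest summed levels in Lgr5-negative cells. Thbs1, the matrix glycoprotein thrombospondin-1, ranged from 0 to 4555 CPM with a median of 0 in positive cells and from 0 to 17463 CPM with a median of 1657 CPM in negative cells. It was at 100 CPM or more in 9 of 23 positive, 7 of 16 in-between and 40 of 48 negative cells. The sums were 478.2 and 2499 CPM, 5.23-fold lower in positive cells (5.10 to 5.36). At equal depth the shares were 39.1% (19.7 to 61.5%) and 85.4% (72.2 to 93.9%). Across the 17 alternative settings its log2 ratio ran from -2.53 to -2.04.

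Col4a1, a chain of the collagen IV of basement membranes, had a median of 62.3 CPM (0 to 643.5) in positive and 184.1 CPM (0 to 3063) in negative cells, and summed levels of 124.9 and 779.7 CPM. Apoc1, an apolipoprotein, had a median of 2.23 CPM (0 to 439.2) against 244.0 CPM (0 to 1708), with 8 of 23 and 30 of 48 cells at 100 CPM or more. Dusp5, a phosphatase that switches off nuclear ERK, had the lowest log2 ratio of the 12 at -3.09, with 3 of 23 and 16 of 48 cells at 100 CPM or more. Moxd1, a monooxygenase-like protein, had 86.7 against 328.0 CPM and a log2 ratio of -1.91. Eid1, Tmem176a, Top2b (a DNA topoisomerase), Litaf (a lysosomal membrane protein) and Aprt (an adenine salvage enzyme) had log2 ratios of -2.54, -2.20, -2.14, -2.12 and -2.07, and Lgr6 and Myc complete the 12. The medians of Top2b were close, at 12.8 CPM in positive and 14.6 CPM in negative cells.

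**Figure D4:**
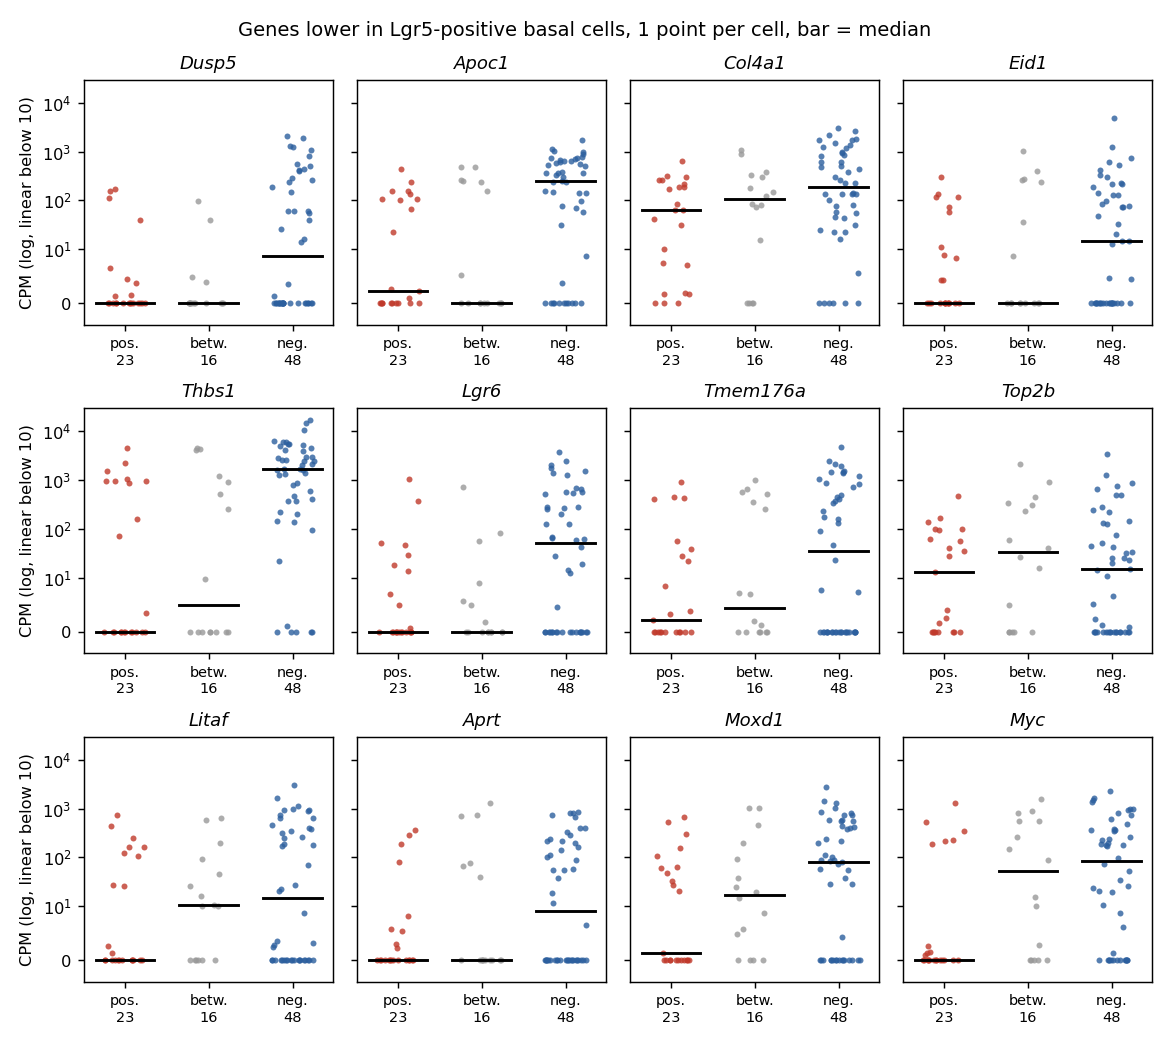
CPM per cell (log axis, linear below 10) of the 12 genes lowest in Lgr5-positive cells, in the same layout. Thbs1, Apoc1 and Col4a1 have the highest negative medians, with 1657, 244.0 and 184.1 CPM in negative and 0, 2.23 and 62.3 CPM in positive cells, and every gene overlaps between the sides.

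Both sets came from genes at 50 CPM or more on the higher side that at least 50% of its cells held at 10 CPM and of which no cell held over 40% of the reads. These limits were met by 668 higher genes, of which 154 (23.1%) were past 2-fold, and by 254 lower genes, of which 66 (26%) were. The 24 were taken for their ratios, so their order and direction are a description. With only the 17 positive and 24 negative cells that had at least 2000 genes at 50000 reads, 3143 genes were higher by 2-fold or more and 3196 lower.

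Basal keratins were higher in Lgr5-positive cells. Acta2, the main contractile gene, was lower in the sums but had close medians. Since entry to both sides used Krt5, Krt14 or Acta2, their levels are a description. Krt14 ranged from 0 to 10423 CPM (median 2758) in positive and from 0 to 10588 CPM (median 924.6) in negative cells, 2.28-fold higher in the sums (2.25 to 2.31). Krt5 had medians of 941.0 and 391.3 CPM. Acta2, smooth muscle actin, had medians of 8280 and 8828 CPM and sums of 9323 and 13670 CPM. Trp63, the transcription factor that maintains basal identity, had medians of 83.1 and 289.3 CPM, with 10 of 23 and 31 of 48 cells at 100 CPM or more.

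Of the 20 basal and myoepithelial genes, 19 were measured, 6 at least 2-fold higher and 1 lower, with a median log2 ratio of 0.42 and a range of 0.16 to 0.55 over the 17 settings. Oxtr, the oxytocin receptor that drives milk ejection, ranged from 0 to 3228 CPM (median 1316) against 0 to 4700 CPM, with 20 of 23 and 24 of 48 cells at 100 CPM or more. Jag2, a Notch ligand, had 91 against 38.5 CPM. Krt15, a keratin of epidermal and follicular stem cells, had 116.1 against 5.63 CPM, with 3 of 23 and 0 of 48 cells at 100 CPM or more, where 0 allows a share of up to 6.25%, and well D13 held 73.8% of its positive reads. Of the 20 smooth muscle contraction genes, 19 were measured, 4 higher and 0 lower, with a median of -0.01. Pdlim7, an actin-associated protein, had 188.6 against 77.7 CPM.

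Notch, TGF-beta and growth factor genes include receptors and ligands of basal cells. Of 9 measured of 16 Notch genes, 4 were at least 2-fold higher and 3 lower. Notch2, a receptor, ranged from 0 to 679.5 CPM (median 52.3) in positive and from 0 to 620.1 CPM (median 0) in negative cells, with 11 of 23 and 6 of 48 cells at 100 CPM or more. Of 19 measured TGF-beta and BMP genes, 3 were higher and 8 lower, with a median log2 ratio of -0.48. Tgfbr3, a TGF-beta co-receptor, had medians of 125.4 and 417.5 CPM and sums of 319.5 and 789.3 CPM. Bmpr1a, a BMP receptor, had 231.1 against 110.6 CPM. In the EGF, FGF and neuregulin list, 1 of 14 measured genes was higher and 4 lower. Egfr, the EGF receptor, was within 2-fold in the sums, and its medians were 192.0 and 17.2 CPM.

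Of 12 measured of 17 cytokines and chemokines, 7 were at least 2-fold lower and 2 higher, where the shares over all measured genes were 29.2% lower and 27% higher, with a median log2 ratio of -1.35 and a range of -1.61 to -0.74 over the 17 settings. Cxcl12, a chemokine that attracts CXCR4-bearing cells, ranged from 0 to 1251 CPM (median 34.1) in positive and from 0 to 4098 CPM (median 386.2) in negative cells, with 10 of 23 and 34 of 48 cells at 100 CPM or more. At equal depth it was detected in 39.1% and 72.9% of cells. Cxcl14, another chemokine, went the other way: 51.7 to 3082 CPM (median 1169) against 8.67 to 2076 CPM (median 383.0), 2.28-fold higher in the sums (2.22 to 2.33). Chil1, a chitinase-like secreted protein, had medians of 403.8 and 2837 CPM, and Lcn2, an iron-binding defence protein, of 2078 and 2679 CPM.

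In the basement membrane, hemidesmosome and integrin list, 23 of 24 genes were measured, 1 at least 2-fold higher and 8 lower, against 27% and 29.2% of all measured genes, with a median log2 ratio of -0.60. Itgb1, the beta-1 integrin CD29 that the sort used, had 207.8 against 541.5 CPM, and Itga6, the alpha-6 integrin, 817.4 against 1354 CPM. Dst, a hemidesmosome linker, had 1278 against 892.5 CPM. Of 19 measured secreted matrix genes, 4 were higher and 5 lower. Postn, the matrix protein periostin, ranged from 0 to 7808 CPM (median 2273) in positive and from 0 to 7358 CPM (median 228.4) in negative cells. Dcn, the proteoglycan decorin, ranged from 0 to 4633 CPM (median 0) against 0 to 6249 CPM (median 597.2), with 10 of 23 and 28 of 48 cells at 100 CPM or more. Dcn also belongs to the fibroblast marker list, whose values stand below.

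Of 20 genes reported with Lgr5 in stem cells of other tissues 14 were measured, 4 at least 2-fold higher and 8 lower, with a median log2 ratio of -1.43. The median became -0.23 with the mean of CPM per cell, and the summed level of the list was 945.2 CPM in positive and 759.3 CPM in negative cells. Sox9, a progenitor transcription factor, had 488.4 against 337.6 CPM. Lrig1, an inhibitor of EGF receptor signalling that marks epithelial stem cells, had 232.7 against 77.6 CPM, with 7 of 23 and 5 of 48 cells at 100 CPM or more. Prom1, a membrane protein of progenitors, had 2.37 against 56.5 CPM, with 0 and 2 cells at that level. Of the mammary stem-like list 15 of 19 were measured, 4 higher and 6 lower. Procr, a marker reported for multipotent mammary cells, stayed under the level limit with 2.98 and 4.71 CPM. Sox10, a progenitor transcription factor, had 110 against 170.5 CPM.

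**Figure D5:**
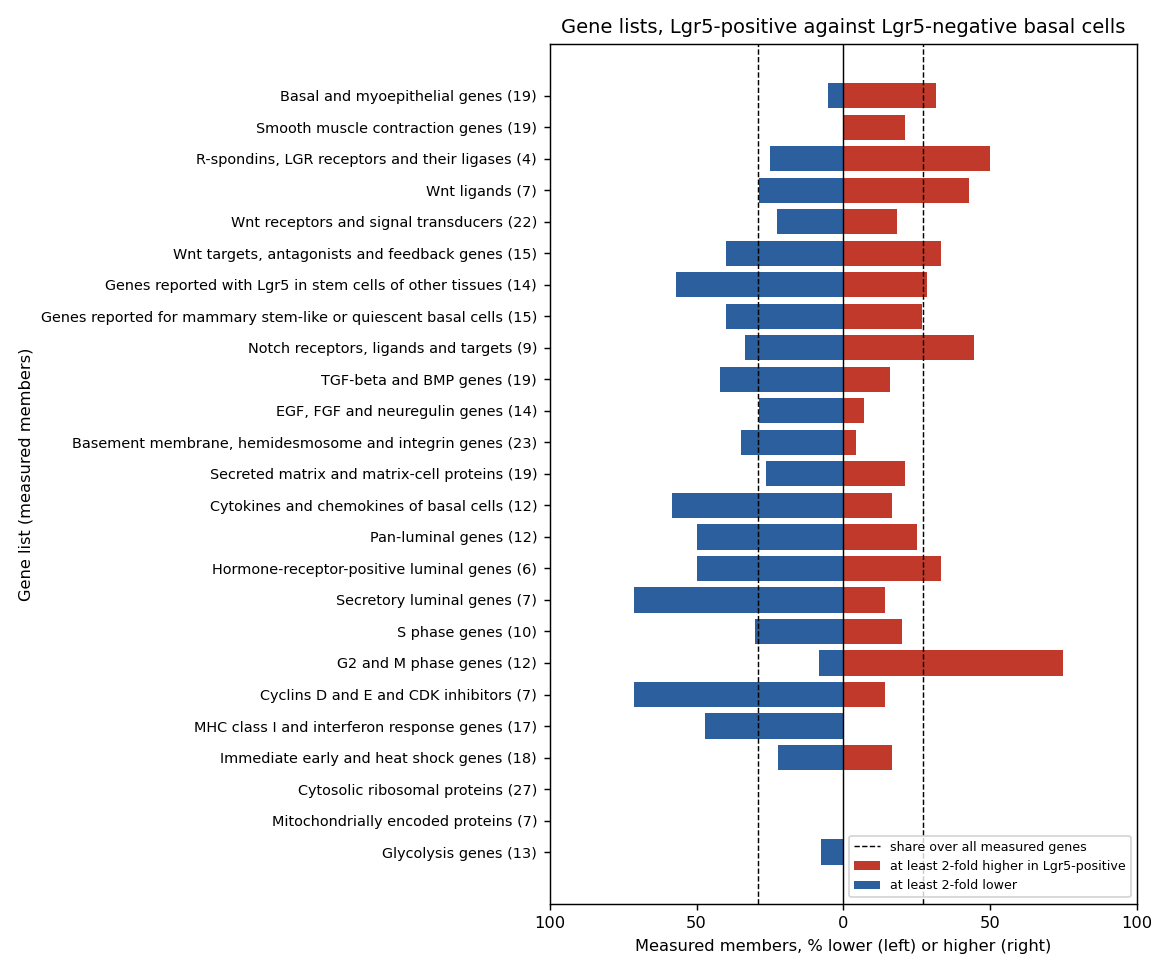
Share of measured members at least 2-fold higher (right) or lower (left) in Lgr5-positive cells for 25 gene lists, with the number of measured members in brackets and dashed lines at the shares over all measured genes, 27% and 29.2%. Cytokines and chemokines have 7 of 12 members lower, ribosomal and mitochondrial lists have none past 2-fold, and the bar of the G2 and M phase list rests on well A16.

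The level of the G2 and M phase list rested largely on 1 well on each side. It summed to 401.8 CPM in positive and 135.7 CPM in negative cells. Well A16 held 94.7% of the positive reads and well A3 held 77% of the negative reads. Of the 12 G2 and M phase genes measured, 9 were higher by 2-fold or more, but the median log2 ratio of 3.45 became -1.59 without the 3 cells that matched another gate. Ccna2, a mitotic cyclin, had 1541 CPM in well A16, which held 99.4% of the positive reads, and the positive sum of 64.5 CPM was 0.424 CPM without it. Mki67, a proliferation marker, was at 100 CPM or more in 1 of 23 positive and 3 of 48 negative cells. Of 10 S phase genes measured, 2 were higher and 3 lower. Of 7 measured cyclins D and E and CDK inhibitors, 1 was higher and 5 lower. Ccnd2, a D-type cyclin, had 37.3 against 93.7 CPM, and Cdkn1a, the inhibitor p21, 42.2 against 97.7 CPM.

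The immediate early, ribosomal, mitochondrial and glycolysis lists had medians near 0. Of 18 immediate early and heat shock genes, 3 were at least 2-fold higher and 4 lower. Dusp1, a phosphatase induced by stress, ranged from 0 to 5276 CPM (median 555.0) in positive and from 0 to 3702 CPM (median 1.16) in negative cells, with 17 cells at 100 CPM or more on each side. Egr2, an early growth response factor, had medians of 35 and 245.3 CPM. Fos, an immediate early transcription factor, had sums of 5474 and 4309 CPM. All 27 ribosomal protein genes and all 7 measured mitochondrial protein genes were within 2-fold, and of 13 glycolysis genes 0 were higher and 1 was lower. Of 17 measured MHC class I and interferon genes 0 were higher and 8 lower, with a median of -0.84 that became 0.34 in plate rows A to C. B2m, the light chain of MHC class I, had 1312 against 998.2 CPM.

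Luminal genes served as a check for the other epithelial layer. Of 12 measured pan-luminal genes, 3 were at least 2-fold higher and 6 lower, and the list median of -0.75 became 0.34 without the cells that matched another gate. Krt8 had medians of 198.6 and 14.3 CPM, and Krt18 of 1.71 and 3.35 CPM, both luminal keratins. Epcam, an epithelial adhesion protein, had 335.3 against 148.2 CPM. Of 7 measured secretory luminal genes, 1 was higher and 5 lower, and of 6 hormone-receptor-positive luminal genes, 2 were higher and 3 lower.

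Dcn carried most of the fibroblast markers, and single wells much of the endothelial and embryonic ones. The 8 fibroblast markers summed to 713.1 CPM in positive cells (0 to 4633 per cell, median 195.0) and 1634 CPM in negative cells (0 to 6249, median 753.9). Without wells F7 and F8 the negative cells had 1486 CPM. Of the fibroblast markers Lum, Dpt and Pi16 had 0 reads on both sides, and Col1a1 had 0.271 and 1.05 CPM. The measured fibroblast markers other than Dcn went different ways, with log2 ratios of -3.08 in Col3a1, 1.98 in Col1a2 and -0.143 in Pdgfra. Endothelial markers summed to 36.1 CPM (0 to 1842 per cell) and 4.23 CPM (0 to 538.4), pericyte markers to 33.3 and 55.5 CPM, and immune markers to 1.29 and 1.70 CPM (1.10 CPM without D21) with Ptprc at 0 on both sides. Without well C16 the positive endothelial sum was 14.3 CPM. Embryonic gate genes summed to 83.2 CPM (0 to 1282 per cell) and 19.1 CPM (0 to 208), with 36.7 CPM in positive cells without well A16. Of these genes Penk had 1205 CPM in well A4. Adipocyte markers summed to 60.2 and 46.5 CPM and Schwann cell markers to 126.8 and 174.2 CPM. The part of these cells in the differences was not tested.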

How the data were processed

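The authors deposited 1 table of raw read counts (49585 genes and 92 spike-ins by 384 wells). Modified Smart-seq2 with oligo-dT primers, spike-ins and 24 cycles of PCR came before Nextera XT, per the labels' protocols. The tools were cutadapt 1.13, STAR 2.5.2b and HTSeq 0.6.0 on GRCm38, per the submitters' processing notes. Annotation and strand mode of the counting were not stated there, so reads of overlapping or antisense genes cannot be told apart. GENCODE M21 gave symbols and coordinates for 49326 identifiers.

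Reads were summed per side and scaled to CPM of gene reads without spike-ins (Python 3.11.15, numpy 2.4.6, pandas 2.3.3). Log2 ratios used a prior of 1 CPM, genes were measured at 5 CPM on either side, and folds are ratios of CPM without the prior. Intervals of folds are exact and conditional, and those of shares are Clopper-Pearson at 95% (scipy 1.17.1). Shares count cells with 5 reads after thinning to 50000 reads. Doublets were not called. No test was made, since both sides are 1 sample. The functions recovered known folds in simulated counts.

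Named genes were the 12 highest and 12 lowest log2 ratios among genes with 50 CPM on the higher side, 10 CPM in at least 50% of its cells, no cell above 40% of its reads and the same direction in mean log2(CPM + 10). Lgr5, ribosomal, mitochondrial, Gm and Rik genes were left out. Up to 4 most abundant and 3 most abundant 2-fold members of each list were added, with Lgr4, Lgr6, Tspan8 and a few Wnt, basal, luminal and cycle genes. The cells, the 25 gene lists and 7 marker lists were chosen with earlier results of these data known. There were 17 alternatives, among them TMM factors from edgeR 4.0.16.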

Additional observations from a re-analysis of the deposited data

Results flagged for a closer look

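Lgr5 was also read in cells outside the comparison. Among kept luminal cells, 8 had Lgr5 at 100 CPM or more (7.41%, exact interval 3.25 to 14.1%), from 101.5 CPM in well F14 to 2341 CPM in well G9, while the wells without a cell had 0 Lgr5 reads. Well G9 had 13565 CPM of Krt8 and 0 of Krt14, and wells F22 and F23 had 1040 and 2130 CPM of Krt14. The luminal well of 50 cells had 0 Lgr5 reads.

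One kept basal well without a basal marker at the limit, D19, had Lgr5 at 513.1 CPM. It had 0 reads of Krt14, Krt5 and Acta2, 1890 CPM of Krt8 and 6434 CPM of Csn3, a milk protein gene of luminal cells. It entered neither side.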

How the results depend on the processing

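No paired analysis was possible because the labels give no replicate numbers or animals. Over the 17 alternatives, 375 values of the 24 genes with the highest and lowest ratios moved by less than 1.5-fold and 33 by more. Their direction was kept, which their choice for extreme ratios largely fixes. Plate rows moved the median log2 ratio of all measured genes to 0.10 (rows A to C) and -0.35 (rows D to P), and leaving out the top cell moved it to -0.18. The 2935 higher genes became 1778 without the top cell. Lists with a median of 0.5 or more numbered 5, and 2 without the top cell, 8 in rows A to C and 3 in rows D to P. Lists at -0.5 or less numbered 10, and 16, 5 and 16 in the same settings. The 461 genes with a higher share became 841 with 1 read as detection and 1124 with all reads. Some log2 ratios and list medians changed sign, and the cause was not tested. Not all of them are listed below. Among those left out, the hormone-receptor-positive luminal list ran from -2.65 to 1.53 over the alternatives and the Wnt ligand list from -1.84 to 3.25. Ccnb2 ran from -4.5 to 2.12 and Pola1 from -5.53 to 0.929. The values listed below all changed sign. With all 3 basal markers required the values were Cxcl16 0.115 and Esr1 2.27. With the Lgr5 limit at 200 CPM the values were the list of R-spondins, LGR receptors and their ligases -0.0359, the list of G2 and M phase genes -3, the marker list of Schwann cell -0.51, Znrf3 -0.424, Pygo2 -0.561, Cdc20 -2.42, Ndnf -0.0616 and Mbp -2.15. With cells thinned to 50000 reads the values were the list of R-spondins, LGR receptors and their ligases -0.562, Cxcl16 0.0609, Esr1 0.0777, Csn3 0.0601 and Mki67 0.176. With the mean of per-cell CPM the values were the list of R-spondins, LGR receptors and their ligases -0.526 and Mki67 0.208. With only cells of at least 2000 genes at 50000 reads, a setting added after seeing the data, the values were Id2 0.0595 and Ung 0.226. Within plate rows A to C the values were the list of R-spondins, LGR receptors and their ligases -0.188, the list of Pan-luminal genes 0.623, the list of MHC class I and interferon response genes 0.34, the marker list of Schwann cell -0.366, Znrf3 -0.167, Wnt6 2.6, Fzd1 0.545, Pygo2 -0.0903, Cxcl16 0.93, Krt18 0.623, Spp1 -5.15, Ccnd2 1.08, Tapbp 0.396 and Irf1 0.296. Within plate rows D to P the values were the list of G2 and M phase genes -4.17, the marker list of embryonic gate genes -4.71, the marker list of fibroblast 0.327, Id2 0.955, Cited1 -2.97, Cdc20 -3.47, Ndnf -0.0885, Col3a1 0.0462, Pecam1 -2.35 and Kdr -1.3. Without cells that match another gate the values were the list of Pan-luminal genes 0.344, the list of G2 and M phase genes -1.59, Cdc20 -2.63 and Ndnf -0.0673. Without cells with 3 markers of another type the values were the list of Pan-luminal genes 0.325 and Kdr -0.872. Without the top cell of each gene the values were the list of R-spondins, LGR receptors and their ligases -0.481, the list of G2 and M phase genes -2.17, the marker list of embryonic gate genes -2.86, the marker list of Schwann cell -0.573, Cited1 -0.0483, Spp1 -3.26 and Mbp -0.848.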
